A study of Mus musculus with 6 samples.

Results

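The genes described here are 4 ubiquitin ligases of striated muscle, Fbxo32, Trim63, Trim54 and Trim55, and 3 forkhead transcription factors of the FoxO family, Foxo1, Foxo3 and Foxo4. They were chosen by name, and each was examined over its RefSeq gene body plus 10 kb on each side. All 7 matched 1 gene each, among 21887 windows of protein-coding genes made the same way. The data were lists of peaks of histone H3 acetylated at lysine 27 (H3K27ac), a mark of active promoters and enhancers, obtained by CUT&RUN. In this assay an antibody directs a nuclease to the mark, and the released DNA fragments are sequenced. The nuclei came from left ventricles of FVB mice aged 8 to 12 weeks and were sorted with an antibody against PCM-1, a protein of the cardiomyocyte nuclear envelope. In the HOM group (3 libraries) Nppa and Nppb, which encode the natriuretic peptides ANP and BNP, had been deleted with CRISPR, and in the WT group (3 libraries) they had not. The growth protocol also names Myh6-MerCreMer, nTnG and ROSA26 Sun1/sfGFP lines on FVB/N without assigning any to a sample. Nothing in the labels ties a library to its own mouse. The p-values therefore describe only how far these samples spread, and that spread can be technical. A two-sided exact permutation test of 3 libraries against 3 cannot go below p = 0.1.

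Ubiquitin ligases attach ubiquitin to proteins and so mark them for degradation by the proteasome. In muscle, Fbxo32 (atrogin-1, the substrate receptor of an SCF ligase) and Trim63 (MuRF1, a RING ligase of the sarcomeric M-line) are the classical genes of wasting. Trim55 (MuRF2) and Trim54 (MuRF3) are related RING proteins that bind microtubules and the sarcomere. FoxO factors drive transcription of Fbxo32 and Trim63 when insulin and IGF-1 signalling is low, and the kinase AKT, when active, keeps them out of the nucleus. In the heart the same ligases take part in the turnover of sarcomere proteins and the control of hypertrophy.

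The 6 lists differed widely in length. They held 48102, 1462 and 15184 peaks in HOM replicates 1, 2 and 3, and 21340, 72362 and 106605 in WT replicates 1, 2 and 3, covering 17.2, 0.296 and 4.54 Mb and 6.69, 31.6 and 55.7 Mb. HOM replicate 2 stood apart, with a median peak width of 84 bp against 232 to 291 bp in the other 5 libraries. Of 10 cardiomyocyte markers, all had a peak in the window in 5 libraries and none in HOM replicate 2. Of 8 fibroblast markers, Tcf21 had a peak in WT replicate 3 and none of the 8 had one in any other library. On chromosome Y, below 80 Mb, HOM replicate 1 and WT replicate 1 had 112 and 111 peaks, and the others 1 to 5. The depth is not stated in the lists. The fold of a peak is the authors' value for its summit over the background of the same library, and it came in whole steps, from which the number of fragments at each summit was recovered. The weakest peaks rested on 5 to 7 fragments.

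Acetylation was called at most of the 7 genes in every library except HOM replicate 2. A peak lay in the window of 7, 0 and 5 of the 7 genes in HOM replicates 1, 2 and 3, and of 6, 7 and 7 in WT replicates 1, 2 and 3. Among all protein-coding genes the corresponding shares were 40.6%, 2.44% and 20.5% in HOM, and 26.2%, 50.8% and 60.4% in WT. The windows of the 7 genes had a median length of 59.0 kb, against 37.2 kb for all genes, and longer windows can hold more peaks. The genes without a peak were Foxo1 and Foxo4 in HOM replicate 3 and Trim54 in WT replicate 1. HOM replicate 2 had no peak at any of the 7, so the values of 0 in that library carry no information on the single genes.

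**Figure D1:**
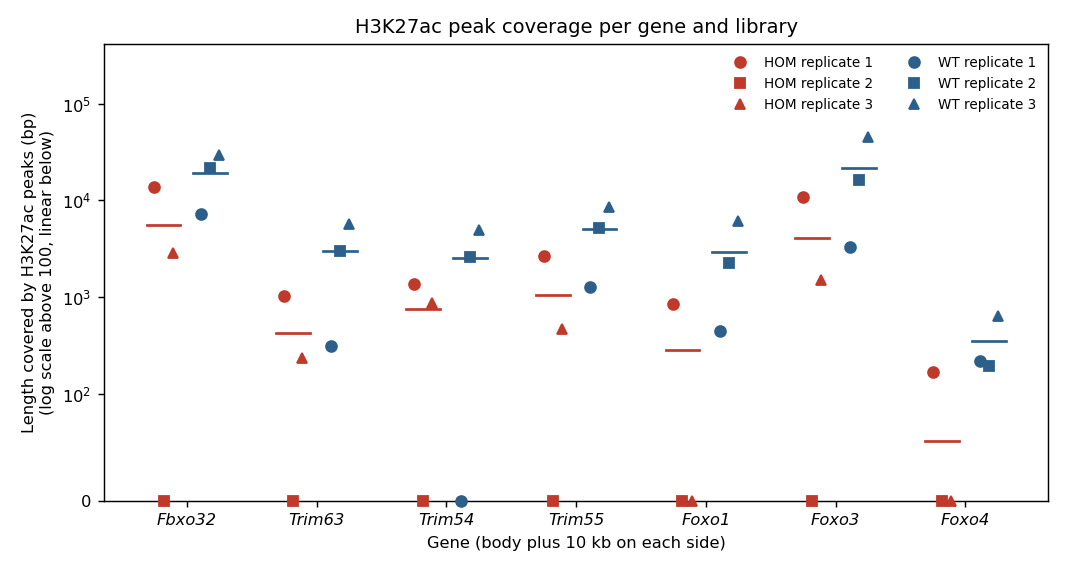
Length covered by H3K27ac peaks (bp, log axis above 100 bp) in the window of each gene, with 1 point per library and a bar for the mean of 3 libraries; HOM is red and stands left of WT in blue. Fbxo32 and Foxo3 have the longest coverage, up to 29383 and 45014 bp in WT replicate 3, and Foxo4 the shortest, at most 633 bp.

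Fbxo32 was the most densely acetylated of the 7 genes in HOM replicates 1 and 3 and in all WT libraries. It lies on chromosome 15 at positions 58175879 to 58214892 of mm10. The strand and the exons of this gene were not used here. Its window held 34, 0 and 11 peaks in HOM replicates 1, 2 and 3, against 24, 35 and 27 in WT replicates 1, 2 and 3. These peaks covered 13853, 0 and 2863 bp in HOM, against 7229, 21702 and 29383 bp in WT. The libraries came in the same order as by the length of their whole lists, with HOM replicate 1 above WT replicate 1, so the HOM and WT values overlapped. In percent of the window, the covered part was 23.5, 0 and 4.85 in HOM and 12.2, 36.8 and 49.8 in WT. Ranked among all coding genes by covered length, Fbxo32 stood 166th and 289th in HOM replicates 1 and 3, and 115th, 186th and 269th in WT replicates 1, 2 and 3. By the covered share of the window, which takes out gene length, it stood at percentiles 99.68 and 98.79 in HOM and 99.76, 99.72 and 99.61 in WT.

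The acetylation of Fbxo32 lay mostly in the gene body, with a smaller part in the upper flank. In the gene body lay 13322 and 2116 bp in HOM replicates 1 and 3 and 6760, 20137 and 27487 bp in WT, and in the 10 kb above it 531 and 747 bp in HOM and 469, 1565 and 1896 bp in WT. No peak lay in the 10 kb below the gene in any library. The lowest peak started at 58187028 and 58189663 in HOM replicates 1 and 3, more than 11 kb into the gene, and at 58188192, 58178343 and 58180437 in WT. Single peaks were 166 to 1350 bp wide in HOM replicate 1, 171 to 747 bp in HOM replicate 3, 177 to 598 bp in WT replicate 1, 165 to 1655 bp in WT replicate 2 and 162 to 3941 bp in WT replicate 3. The widest peaks were in WT replicates 3 and 2, and the narrowest maximum was in WT replicate 1. There were 7 short stretches, of 10 to 233 bp, covered in all 5 libraries other than HOM replicate 2. The widest ran from 58204781 to 58205013, and 1 lay outside the gene, from 58215556 to 58215721. Of the length covered in any HOM library, 98.5% was also covered in a WT library.

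The place of the strongest Fbxo32 peak varied, and HOM replicate 3 had no single one. The strongest peak had a fold of 7.92 in HOM replicate 1 (58194771 to 58195192, 422 bp), which is rank 867 of 48102. In HOM replicate 3, 4 peaks tied at a fold of 5.46 and rank 2596 of 15184, starting at 58189663, 58203418 and 58212000 inside the gene and at 58215048 above it. In WT replicate 1 the strongest had a fold of 6.05 and rank 1819 of 21340 (58208397 to 58208728, 332 bp), in WT replicate 2 a fold of 9.27 and rank 1528 of 72362 (58201512 to 58202296, 785 bp), and in WT replicate 3 a fold of 13 and rank 1585 of 106605 (58204137 to 58206238, 2102 bp). These summits held 20 and 12 fragments in HOM and 14, 22 and 28 in WT. Ranks were 1.80% and 17.1% from the top in HOM and 8.52%, 2.11% and 1.49% in WT, but ranks from lists of unequal length show no change between libraries. Peaks of equal fold share a rank, 1844 of them at the rank of HOM replicate 3. When peaks were joined over gaps up to 10 kb, the domain at Fbxo32 ranked by covered length 116th of 12399 and 207th of 5981 in HOM replicates 1 and 3, and 64th of 7632, 130th of 16690 and 211th of 20864 in WT.

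**Figure D2:**
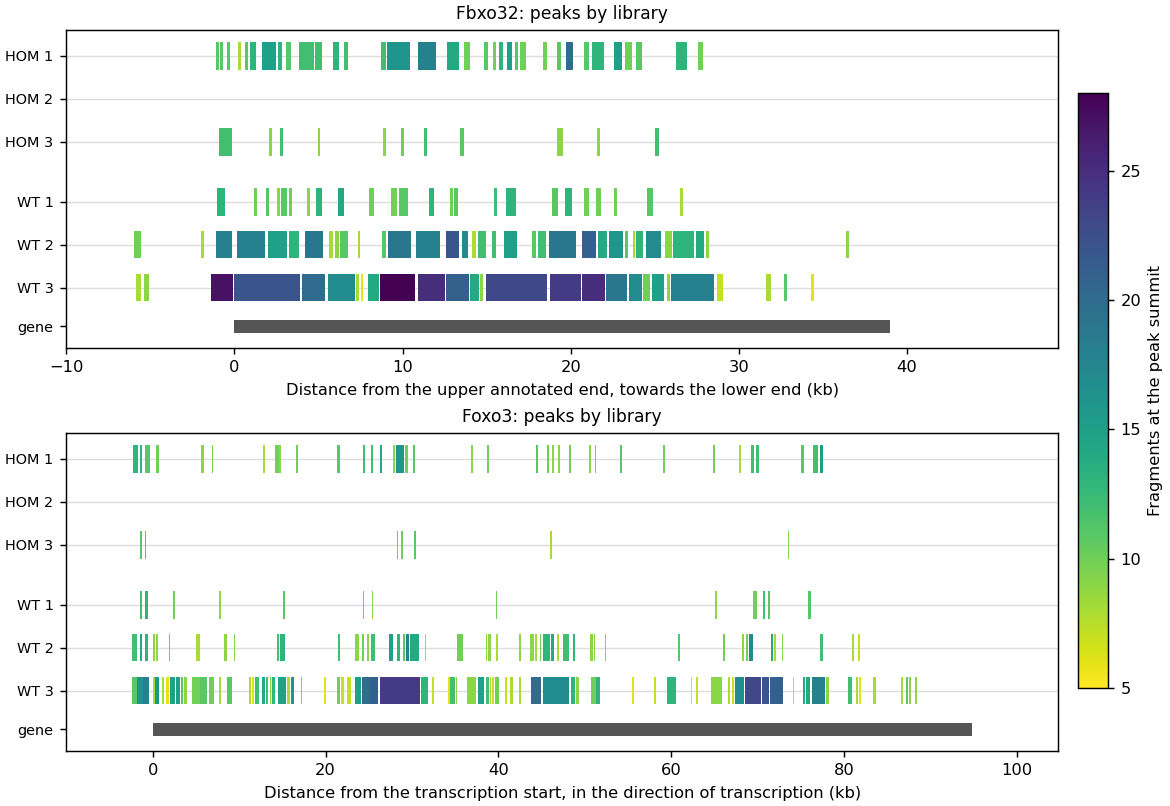
Peaks of each library (rectangles, to scale, coloured by the fragments at the summit) along Fbxo32, drawn from its upper annotated end, and Foxo3, drawn from its transcription start (kb); HOM libraries are above WT libraries and the grey bar is the gene. Fbxo32 carries peaks from its upper end through most of the gene, with few near its lower end, while Foxo3 has scattered peaks along most of its length.

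Trim63 had far fewer peaks. The gene lies on the plus strand of chromosome 4 at 134315120 to 134329629 and is on the same chromosome as the deleted genes. Its window held 3, 0 and 1 peaks in HOM replicates 1, 2 and 3, and 1, 8 and 14 in WT. The covered length was 1028, 0 and 234 bp in HOM, against 308, 3006 and 5666 bp in WT, again overlapping. A stretch of 234 bp, from 134314379 to 134314612, was covered in all 5 libraries other than HOM replicate 2, and lies 741 to 508 bp before the start. In HOM replicate 3 and WT replicate 1 this was the place of the only peak. The strongest peak had a fold of 5.66 in HOM replicate 1 (134314095 to 134314724, 630 bp, rank 7733 of 48102), 4.62 in HOM replicate 3 (234 bp, rank 7229 of 15184), 3.63 in WT replicate 1 (134314339 to 134314646, 308 bp, rank 19950 of 21340) and 5.24 in WT replicate 2 (134314130 to 134314770, 641 bp, rank 20686 of 72362), where a peak inside the gene from 134315490 to 134316032 tied with it. In WT replicate 3 the strongest peak lay farther away, from 134306974 to 134307686 (713 bp), with a fold of 8.51 and rank 9480 of 106605. A peak was also called at this distal site in HOM replicate 1, from 134307331 to 134307506, and in WT replicate 2, from 134307137 to 134307506. No annotated gene other than Trim63 lies in the window.

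Trim54 was marked at its start. It lies on the plus strand of chromosome 5 at 31116612 to 31137626, and Slc30a3, Dnajc5g, Ucn and Mpv17 reach into its window. The window held 3, 0 and 2 peaks in HOM, covering 1373, 0 and 865 bp, and 0, 4 and 12 peaks in WT, covering 0, 2609 and 4982 bp. WT replicate 1 therefore had less than HOM replicate 3, although its list was longer. Its strongest peak was 683 bp wide with a fold of 6.41 in HOM replicate 1 (31117480 to 31118162, rank 3807 of 48102) and 517 bp with 5.88 in HOM replicate 3 (31116594 to 31117110, rank 1471 of 15184). In WT replicates 2 and 3 a single broad peak of 1983 and 2220 bp spanned the start, from 31116154 to 31118136 and from 31116180 to 31118399, with folds of 6.04 (rank 12844 of 72362) and 9.41 (rank 6800 of 106605). The stretch from 31116615 to 31116955, just inside the gene, was covered in 4 libraries. In WT replicate 3 another 617 bp lay above the gene, where Ucn and Mpv17 are, and no other library had a peak there.

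Trim55 lies on chromosome 3 at 19644344 to 19692584 and carried peaks at its lower end and inside the gene. It had 7, 0 and 2 peaks covering 2663, 0 and 470 bp in HOM, against 4, 13 and 13 peaks covering 1273, 5205 and 8614 bp in WT. Around the lower end, stretches from 19643824 to 19643907 and from 19645303 to 19645799 were covered in HOM replicate 1 and all WT libraries. A site about 32 kb into the gene, from 19676524 to 19676700, was covered in the same 4 libraries, and HOM replicate 3 had its strongest peak next to it, from 19676239 to 19676478 (240 bp, fold 4.62, rank 7229 of 15184). The strongest peak of HOM replicate 1 was also internal (19663444 to 19663752, 309 bp, fold 7.55, rank 1258 of 48102). In WT the strongest peaks were at the lower end, with folds of 5.65 in replicate 1 (19645298 to 19645928, 631 bp, rank 2920 of 21340), 8.06 in replicate 2 (19643962 to 19644389, 428 bp, rank 3648 of 72362) and 12.5 in replicate 3 (19643781 to 19644398, 618 bp, rank 1917 of 106605). Whether the place of the strongest peak differs between genotypes was not tested. The upper flank, where the corticotropin-releasing hormone gene Crh lies, had no peak in any library.

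**Figure D3:**
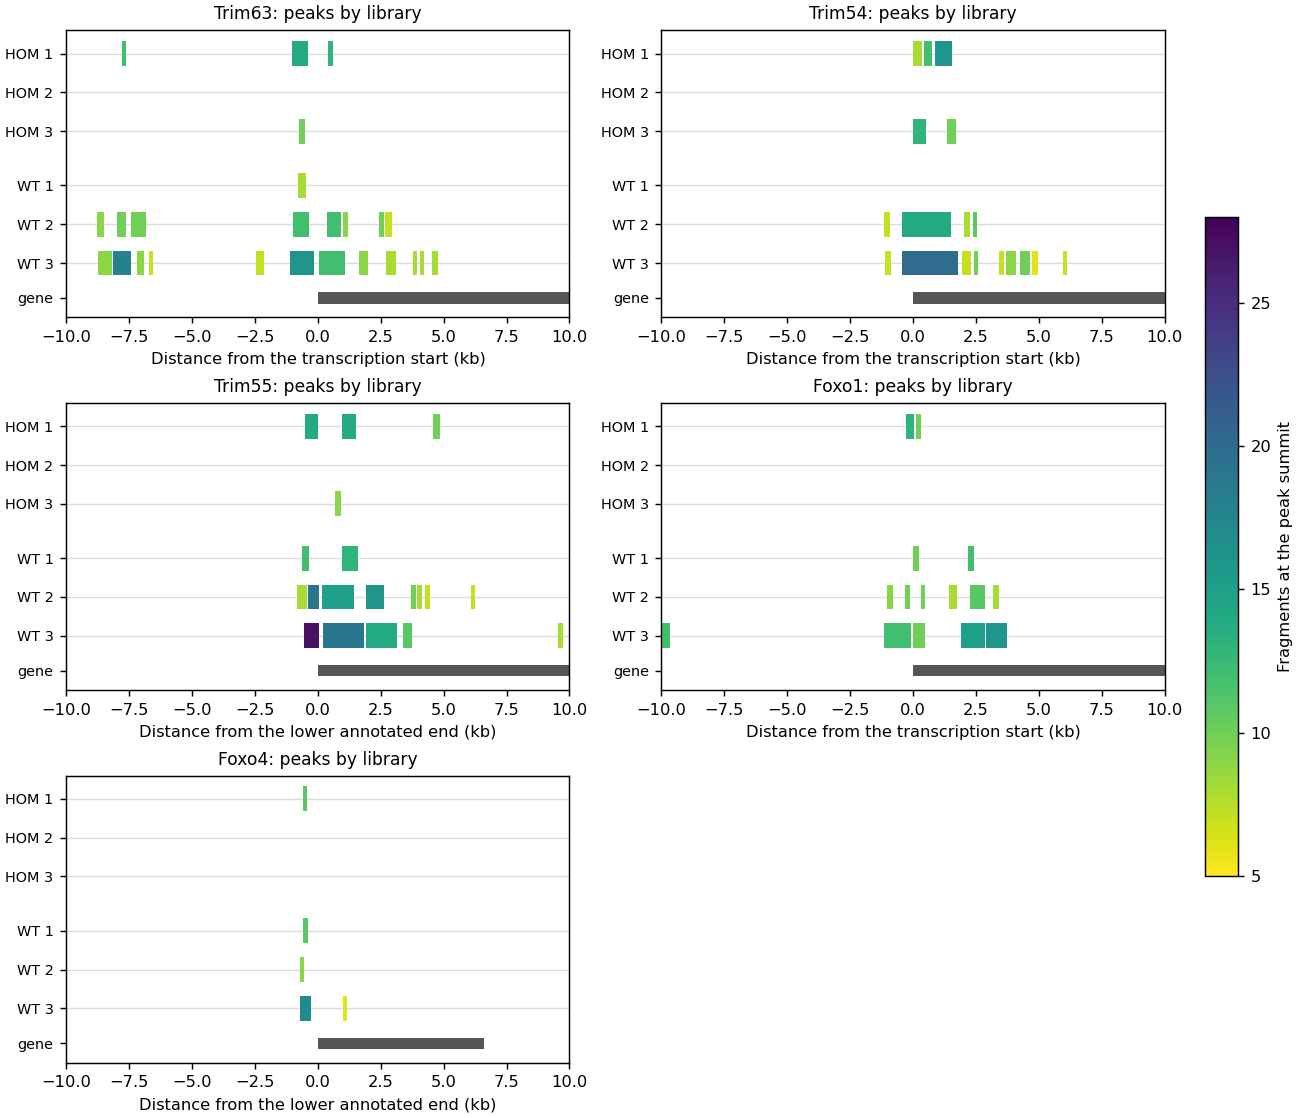
Peaks of each library within 10 kb of the transcription start (Trim63, Trim54, Foxo1) or of the lower annotated end (Trim55, Foxo4), to scale in kb and coloured by the fragments at the summit; HOM libraries are above WT libraries. Peaks sit at or just beside these ends, and a separate site near -8 kb of Trim63 is seen in HOM replicate 1 and WT replicates 2 and 3.

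Foxo1 had few peaks beside Foxo3, the other long gene. It lies on the plus strand of chromosome 3 at 52268337 to 52350109. There were 4, 0 and 0 peaks covering 854, 0 and 0 bp in HOM, against 2, 8 and 16 peaks covering 448, 2245 and 6083 bp in WT. Thus WT replicate 1 lay below HOM replicate 1, and the groups overlapped. The covered share of the window was 0.839% in HOM replicate 1 and 0.440%, 2.21% and 5.98% in WT. No base was covered in more than 3 libraries. A stretch of 171 bp inside the gene, from 52270589 to 52270759, was covered in the 3 WT libraries and in no HOM library, and 4 stretches at the start were covered in HOM replicate 1 and 2 WT libraries each. The strongest peak had a fold of 5.28 in HOM replicate 1 (52268068 to 52268392, 325 bp, rank 10929 of 48102). It had 5.24 in WT replicate 1 (52270533 to 52270759, 227 bp, rank 4654 of 21340), 4.83 in WT replicate 2 (52270589 to 52271185, 597 bp, rank 26698 of 72362) and 7.62 in WT replicate 3 (52271251 to 52272081, 831 bp, rank 13097 of 106605). In all 3 WT libraries the strongest peak was thus 2 kb or more inside the gene, and in HOM replicate 1 it lay across the start. These 4 summits held 13 fragments in HOM and 12, 11 and 16 in WT.

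Foxo3 carried the broadest array of the FoxO genes. It lies on the minus strand of chromosome 10 at 42181845 to 42276695, so that its start is the upper end. It had 36, 0 and 7 peaks covering 10776, 0 and 1485 bp in HOM, against 13, 49 and 80 peaks covering 3258, 16165 and 45014 bp in WT. Among all coding genes it ranked 270th and 699th by covered length in HOM replicates 1 and 3 and 388th, 312th and 124th in WT. Its window of 115 kb is the longest of the 7, and the covered share of 9.38% and 1.29% in HOM and 2.84%, 14.1% and 39.2% in WT was below that of Fbxo32 in each of these libraries. Only 2 stretches were covered in all 5 libraries other than HOM replicate 2. Both lie before the start, from 42277417 to 42277587 and from 42277947 to 42278119, 722 to 892 and 1252 to 1424 bp away. The strongest peak was internal in HOM replicate 1 and WT replicates 2 and 3, and in HOM replicate 3 an internal peak tied with 2 peaks before the start, from 42277417 to 42277612 and from 42277909 to 42278133. The internal peaks lay from 42247605 to 42248495 in HOM replicate 1 (891 bp, fold 6.41, rank 3807 of 48102), from 42246272 to 42246506 in HOM replicate 3 (235 bp, fold 5.04, rank 4440 of 15184), from 42247056 to 42247375 in WT replicate 2 (320 bp, fold 7.65, rank 4751 of 72362) and from 42245756 to 42250368 in WT replicate 3 (4613 bp, fold 11.2, rank 3384 of 106605). The lncRNA gene Gm38485, annotated from 42247436 to 42274809, overlaps the upper side of this region. In WT replicate 1 the strongest peak was before the start, from 42277200 to 42277604 (405 bp, fold 5.65, rank 2920 of 21340).

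Foxo4 had the lowest mean covered length of the 7 genes in both genotypes, although Trim54 had less in WT replicate 1. It lies on chromosome X at 101254261 to 101260873. Its window held 1, 0 and 0 peaks in HOM, of 166 bp in replicate 1, against 1, 1 and 2 peaks in WT, covering 218, 192 and 633 bp. A stretch of 54 bp, from 101253675 to 101253728, lies 586 to 533 bp below the gene and was covered in HOM replicate 1 and all WT libraries. The strongest peaks had folds of 4.53 in HOM replicate 1 (101253675 to 101253840, rank 21711 of 48102) and 4.84, 4.03 and 8.07 in WT (101253667 to 101253884, rank 7515 of 21340; 101253537 to 101253728, rank 45305 of 72362; 101253535 to 101254005, rank 11119 of 106605). They rested on 11 fragments in HOM and on 11, 9 and 17 in WT, where the median peak of a list had 9 to 11. Chromosome X had few peaks in all libraries, 0.503%, 1.78% and 0.349% of the list in HOM and 0.305%, 1.25% and 1.73% in WT. Of its 966 coding genes 10.2%, 0.518% and 2.80% had a peak in HOM and 3.21%, 23.1% and 34.2% in WT. No peak touched Gm614 or the interleukin receptor gene Il2rg, which share the window of Foxo4.

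RefSeq (GRCm38.p6, the assembly named mm10) gave a promoter for Trim63, Trim54, Foxo1 and Foxo3, and the 250 bases before each start are shown because peaks at these 4 genes lay on or beside the start. Capitals mark matches, on either strand, to the FoxO element TGTTTAC, the TATA box TATAAA, the MCAT element CATTCC bound by TEAD factors, and the GC box GGGCGG.
Trim63: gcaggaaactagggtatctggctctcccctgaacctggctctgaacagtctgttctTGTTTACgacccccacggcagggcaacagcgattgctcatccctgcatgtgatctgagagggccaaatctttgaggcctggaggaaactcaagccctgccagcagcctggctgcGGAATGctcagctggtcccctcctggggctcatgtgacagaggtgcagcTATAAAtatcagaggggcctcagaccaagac
Trim54: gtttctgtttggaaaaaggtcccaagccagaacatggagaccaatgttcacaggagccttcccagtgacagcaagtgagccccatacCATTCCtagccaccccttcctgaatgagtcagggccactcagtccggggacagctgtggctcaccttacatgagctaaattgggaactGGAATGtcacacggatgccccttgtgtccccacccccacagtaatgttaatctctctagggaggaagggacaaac
Foxo1: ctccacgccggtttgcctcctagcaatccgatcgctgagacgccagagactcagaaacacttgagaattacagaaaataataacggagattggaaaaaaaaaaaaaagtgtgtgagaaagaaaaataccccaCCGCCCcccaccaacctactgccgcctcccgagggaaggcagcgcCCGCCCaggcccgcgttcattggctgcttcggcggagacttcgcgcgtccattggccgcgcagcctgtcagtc
Foxo3: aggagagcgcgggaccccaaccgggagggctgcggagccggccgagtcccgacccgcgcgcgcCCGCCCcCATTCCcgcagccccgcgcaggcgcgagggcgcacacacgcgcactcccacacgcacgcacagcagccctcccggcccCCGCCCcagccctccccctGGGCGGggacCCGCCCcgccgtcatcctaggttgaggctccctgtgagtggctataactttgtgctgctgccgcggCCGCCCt
They run 5′ to 3′ and lie at chr4:134314870-134315119 on the plus strand, chr5:31116362-31116611 on the plus strand, chr3:52268087-52268336 on the plus strand and chr10:42276696-42276945 on the minus strand. In Trim63 the FoxO element lies 194 to 188 bases before the start, an MCAT match 80 to 75 and the TATA box 31 to 26 bases before it. Of 32851 promoters in the table, 3.17% hold TGTTTAC, 12.4% TATAAA, 12.6% CATTCC and 32.7% GGGCGG in these 250 bases. Trim54 has 2 MCAT matches and none of the other 3 motifs. The promoters of Foxo1 and Foxo3 have 2 and 5 GC box matches, and Foxo3 also 1 MCAT match. They hold 20 and 31 CpG dinucleotides, against 4 in Trim63 and 2 in Trim54, with a median of 6 over all promoters. A match is a description of the letters and does not show binding.

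The covered part of these 250 bases differed between the genes. In Trim63 peaks covered 0 bp in every library except WT replicate 3, with 111 bp, although the stretch shared by 5 libraries lies close by. In Foxo3 they covered 21 bp in WT replicate 2 and 0 bp in all others. In Trim54 the covered part was 18 bp in HOM replicate 3 and all 250 bp in WT replicates 2 and 3. The Foxo1 promoter was covered over 250 bp in HOM replicate 1, and over 145 and 187 bp in WT replicates 2 and 3. Peaks thus reached these bases in 3 libraries at Trim54 and at Foxo1, and in 1 library at Trim63 and at Foxo3.

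No difference between genotypes could pass a threshold at any of the 7 genes. The mean covered length was lower in HOM at all 7, but it was lower at 61.5% of all coding genes and higher at 0.617%, the rest having equal means. These shares include 8296 coding genes that had no peak in any library and so could not differ. All 7 genes had peaks, so 61.5% understates the share of comparable genes that were lower. For Fbxo32 it averaged 5570 ± 7310 bp in HOM and 19400 ± 11200 bp in WT (SD, n = 3 each), with an exact permutation p of 0.2. For Foxo3 it was 4090 ± 5840 bp in HOM and 21500 ± 21400 bp in WT (SD, n = 3 each, exact permutation p = 0.2). The exact permutation p was also 0.2 for Trim63, Trim55 and Foxo1, and 0.4 for Trim54. The median difference was -2641 bp for the 7 genes and -183.3 bp for all coding genes, again with those that had no peak. Foxo4 was the only one of the 7 whose HOM values all lay below its WT values (166, 0 and 0 bp in HOM, 218, 192 and 633 bp in WT, exact permutation p = 0.1). The same pattern was met by 3.49% of all 21887 coding genes and by 0.932% of those on chromosome X, while 0.0% had the reverse pattern. After Benjamini-Hochberg adjustment over all coding genes, the exact permutation test gave 0.865 for each of the 7 genes, and 0 genes had an unadjusted p under 0.05, which this design cannot reach. With a -log10 q of at least 5 asked of every peak, Foxo4 kept 471 bp in WT replicate 3 and 0 bp in every other library, so its groups then overlapped. Under that threshold 0 of the 7 genes, and 1.34% of all coding genes, were lower in every HOM library. Without HOM replicate 2, Foxo4 was still the only one of the 7 lower in every HOM library, beside 3.49% of all coding genes, and 0 of the 7 were higher, beside 0.00457%.

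Relative to the length covered genome wide in the same library, the values of both genotypes overlapped at every gene except Foxo1. Fbxo32 had 805.4, 0 and 630.4 bp per Mb covered in HOM, against 1080, 686.4 and 527.8 in WT. Trim55 had 154.8, 0 and 103.5 in HOM and 190.3, 164.6 and 154.7 in WT, so its groups overlapped only barely. Trim54 had 79.8, 0 and 190.5 in HOM and 0, 82.5 and 89.5 in WT, and the sign of its difference turned to 32.76 bp per Mb (exact permutation p = 0.9). Foxo3 had 626.5, 0 and 327 in HOM and 486.9, 511.3 and 808.6 in WT, while Trim63 had 59.8, 0 and 51.5 in HOM and 46.0, 95.1 and 101.8 in WT. Foxo1 had 49.65, 0 and 0 in HOM and 67.0, 71.0 and 109.3 in WT, which did not overlap (exact permutation p = 0.1). Foxo4 had 9.651, 0 and 0 in HOM and 32.58, 6.072 and 11.37 in WT, which overlapped on this scale (exact permutation p = 0.2). On this scale 5.32% of all coding genes were lower in every HOM library and 0.164% higher, against 3.49% and 0.0% by covered length itself.

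**Figure D4:**
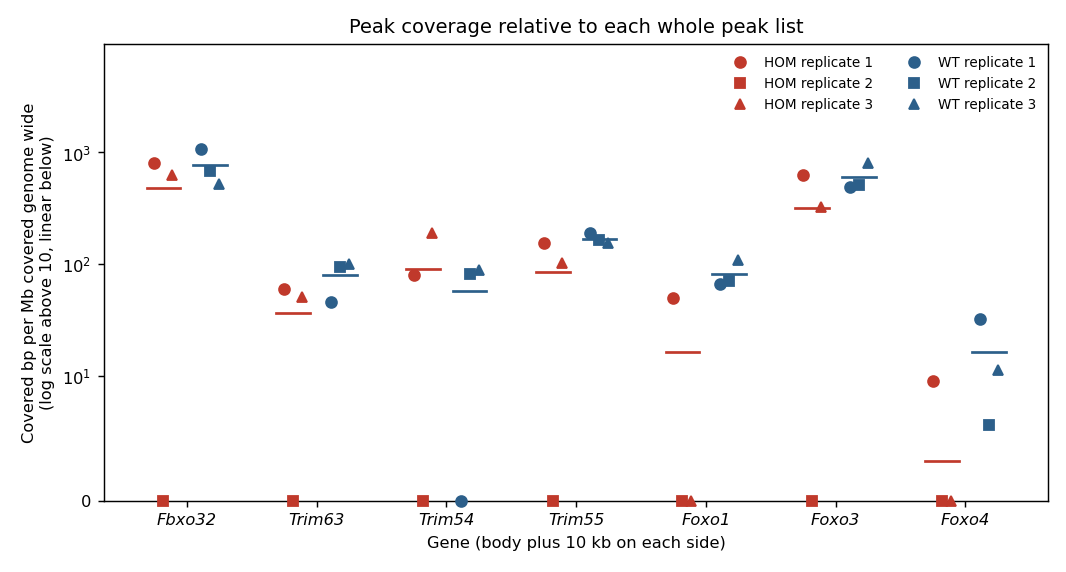
Covered length per gene divided by the covered length of the whole list (bp per Mb, log axis above 10), with 1 point per library and a bar for the mean of 3 libraries; HOM is red and stands left of WT in blue. Without HOM replicate 2, which has no peak at these genes, the points of both genotypes overlap at every gene except Foxo1, and only barely at Trim55.

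With 5 lists limited to their 15184 strongest peaks, and HOM replicate 2 left out, Fbxo32 had 7694 and 2863 bp in HOM replicates 1 and 3 and 6652, 14718 and 24710 bp in WT. Foxo3 had 2342 and 1485 bp in HOM and 2688, 3130 and 19549 bp in WT, and was the only one of the 7 genes whose groups did not overlap (exact permutation p = 0.2, the smallest possible with 2 libraries against 3). This pattern was met by 3.31% of all coding genes and its reverse by 0.397%. Where a list was cut, the cut fell among peaks of equal fold, which were taken in order of chromosome name. In WT replicate 2 it fell among 3464 peaks of fold 6.04, starting at rank 12844. Of these, peaks of 310, 348, 1027 and 212 bp at Foxo3 were kept and the 1983 bp peak at Trim54 was dropped. Without the kept peaks, WT replicate 2 would lie below both HOM values at Foxo3, so the lack of overlap rests on this order. List length and genotype cannot be told apart in these libraries. Whether the groups overlapped depended on single libraries, while all 7 mean differences stayed negative with any 1 library left out. Without HOM replicate 1, 6 of the 7 genes were lower in every HOM library, beside 20.3% of all genes, and without WT replicate 1 all 7 were, beside 45.1%.

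HOM peaks at these genes mostly fell where WT peaks also lay. In HOM replicate 1, 34 of 34 peaks at Fbxo32 touched a peak of a WT library, as did 33 of 36 at Foxo3, 5 of 7 at Trim55, 3 of 3 at Trim63 and at Trim54, 2 of 4 at Foxo1 and 1 of 1 at Foxo4. In the other direction, 14 of 27 peaks of WT replicate 3 at Fbxo32 and 24 of 80 at Foxo3 touched a HOM peak. Counted by bases, 84.1% of the HOM length at Foxo3 and 76.7% at Trim55 was shared with WT, and 52.5% at Foxo1. The unequal lengths set these shares in part, so they do not measure likeness of the genotypes.

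Most other genes of the pathway also had peaks. Of 18 other ubiquitin ligases active in muscle, 16, 2 and 10 had a peak in HOM replicates 1, 2 and 3 and 11, 17 and 17 in WT replicates 1, 2 and 3. The shares of all coding genes with a peak were 40.6%, 2.44% and 20.5% in HOM and 26.2%, 50.8% and 60.4% in WT. None of the 18 ligases was lower or higher in every HOM library, against 3.49% and 0.0% of all coding genes. The most often marked of these ligases were Cblb, of the Cbl family, and Nedd4l, a HECT ligase of ion channels, each with a peak in all 6 libraries. Asb2, a cullin adaptor of muscle, had the largest mean covered length among those with a peak in 5. Asb2 had 10054, 0 and 2371 bp in HOM and 2258, 15972 and 23563 bp in WT. Trim32 had a peak in 3 libraries, the X-linked Huwe1 in 2 and Traf6 in none. The median covered length of these 18 genes was 1713, 0 and 199.5 bp in HOM and 340, 3262 and 6198 bp in WT, against 0, 0 and 0 bp in HOM and 0, 165 and 463 bp in WT over all coding genes. Their median window was 75.3 kb, against 37.2 kb for all coding genes.

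Upstream of FoxO, 13 genes of insulin and AKT signalling had a peak in 12, 1 and 9 cases in HOM and in 10, 13 and 13 in WT. The shares of all coding genes were 40.6%, 2.44% and 20.5% in HOM and 26.2%, 50.8% and 60.4% in WT. The median window of these 13 genes was 89.0 kb, against 37.2 kb for all coding genes, and longer windows can hold more peaks. Pik3r1, the regulatory subunit of PI 3-kinase, had a peak in all 6 libraries, and the insulin receptor gene Insr and the receptor substrate gene Irs1 had the largest mean covered length among those with a peak in 5. Insr had 22674, 0 and 4294 bp in HOM and 7666, 34414 and 48924 bp in WT, more than Fbxo32 in each of the 5 libraries that had a peak. Its window of 149 kb is also longer. Pdpk1, the kinase that activates AKT, had a peak in 4 libraries, the deacetylase gene Sirt1 in 3 and the kinase gene Sgk1 in 2, both WT.

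Downstream, 17 genes that FoxO factors are known to control in muscle or other tissues were marked in 15, 0 and 11 cases in HOM and in 11, 16 and 16 in WT. The shares of all coding genes were 40.6%, 2.44% and 20.5% in HOM and 26.2%, 50.8% and 60.4% in WT. The median window of these 17 genes was 34.0 kb, against 37.2 kb for all coding genes. Sesn1, a sestrin that restrains mTORC1, had 20343, 0 and 5750 bp in HOM and 7140, 30667 and 45961 bp in WT. Rcan1, a calcineurin inhibitor, and Eif4ebp1, a repressor of translation, came next by mean covered length among those with a peak in 5 libraries. Gadd45a had a peak in 3 libraries, Ccng2 in 2 and the autophagy gene Atg14 in none. None of the 13 upstream and 17 downstream genes had HOM values all below or all above its WT values, against 3.49% lower and 0.0% higher among all coding genes. The lists were chosen with earlier results of these data known, and their counts were not tested.

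**Figure D5:**
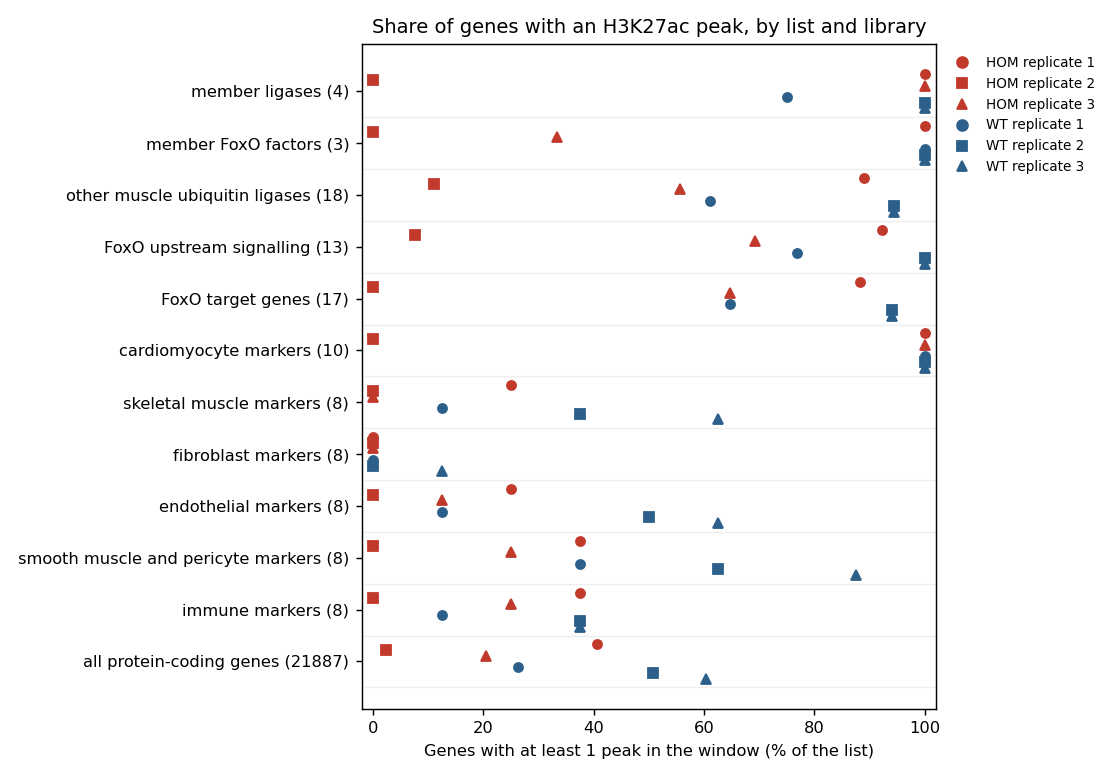
Percent of the genes of each list with at least 1 peak in the window, by library, with the number of genes in brackets; HOM is red and drawn above WT in blue. The ligases, the FoxO factors and the other pathway lists stand above all protein-coding genes in the 5 libraries other than HOM replicate 2, like the cardiomyocyte markers, while fibroblast markers stay at 0% in 5 of 6 libraries.

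Some markers of other cell types had peaks. Among all coding genes the shares with a peak were 40.6%, 2.44% and 20.5% in HOM and 26.2%, 50.8% and 60.4% in WT. The endothelial and skeletal muscle shares were higher than these only in WT replicate 3, and the immune share only in HOM replicate 3. The smooth muscle and pericyte share was higher in HOM replicate 3 and all WT libraries. A peak lay at 2, 0 and 1 of 8 endothelial markers in HOM and at 1, 4 and 5 in WT, and at 3, 0 and 2 of 8 immune markers in HOM and at 1, 3 and 3 in WT. Pecam1 and Spi1 had a peak in 5 libraries each, while Vwf and Tie1 among the endothelial and Ptprc and Csf1r among the immune genes had none in any library. Other genes reaching into the windows of these markers were not examined, so a peak there need not belong to the marker. Of 8 smooth muscle and pericyte markers 3, 0 and 2 had a peak in HOM and 3, 5 and 7 in WT. Abcc9 was the most covered, at 5287, 0 and 636 bp in HOM and 2741, 8767 and 17540 bp in WT. It stood apart from its list, with a mean of 5830 bp against 760 bp for Cspg4, the next, and Rgs5 had no peak. Which cells the Abcc9 peaks come from, cardiomyocytes or others, was not tested. Of 8 skeletal muscle markers 2, 0 and 0 had a peak in HOM and 1, 3 and 5 in WT, and Myod1 none in any library. In those last 2 lists Cspg4 and Tnnt3, 1 of 8 each, were lower in every HOM library, as were 3.49% of all coding genes. The part of other cells in the peaks at the 7 genes was not tested.

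The genes most like each of the 7 over the 6 libraries were found by the mean absolute difference in the percentile of covered length. For Fbxo32 they were Prkaa2, a subunit of AMP-activated kinase that is also in the upstream list, and Tmem245, which differed from it by 0.051 and 0.123 percentile points. Prkaa2 had 13674, 0 and 2683 bp in HOM and 7680, 22768 and 29824 bp in WT, close to Fbxo32 in each library. Foxo3 was closest to Slc20a2 and Lrig1 (0.234 and 0.245 points) and Trim55 to Bicral and Fer (0.487 and 0.516). Trim54 was closest to Mogat2 and Asap3 (0.513 and 0.726), Trim63 to Tmem127 and Arap2 (0.770 and 0.783), Foxo1 to Arhgap17 and Apmap (0.789 and 0.819), and Foxo4 to Csrnp2 and Tox4 (0.596 and 0.948). The list lengths of the 6 libraries are shared by all genes, so a small difference says only that the coverage is of similar size.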

How the data were processed

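CUT&RUN for H3K27ac was done by the submitters on PCM-1 sorted left ventricular nuclei, with 3 HOM and 3 WT libraries grouped by their titles. Per the submitters' processing notes, the tools were BWA and MACS2 and the build mm10; tool versions are not given in the sources used. Each deposited list holds, per peak, a score, a fold, a −log10 p-value and a −log10 q-value. These are the authors' values, used here only within a list. In each list the folds were steps of 1 constant (to 0.02 of a step, in 100% of peaks). Taking them as fragments at the summit plus 1 over background plus 1, a Poisson tail gave back the deposited −log10 p within 9.8e-05 for values below 200.

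Covered length and number of peaks (at least 1 bp in the window) were computed for 21887 RefSeq protein-coding genes with 10 kb on each side, positions 1-based. Genotypes were compared with two-sided exact permutation tests over 20 assignments, adjusted over all genes. The members and lists were chosen with earlier results of these data known. Named genes are the 7; in each pathway list every gene whose groups did not overlap and otherwise the 3 with a peak in most and the 3 in fewest libraries; and the 2 nearest to each of the 7 by coverage percentile. Single marker genes were picked after their values were seen. In simulated data with the same call rate in every library, 200 of 200 planted genes were recovered, with 0 coverage mismatches in 200 trials. The planted genes had no coverage in HOM and some in every WT library. Their recovery was therefore fixed in advance and checks only the code, not the power in lists of unequal length. Alternatives were stricter peaks, equal list lengths, other windows, scales and ranks, left-out libraries, the replicate numbers as a block, and the split by Y peaks. For equal list lengths, peaks of equal fold at the cut were taken in order of chromosome name, then position. The replicate numbers were not taken as pairs. Same-numbered libraries deviated oppositely (correlations -0.761, -0.548 and -0.292 over 13591 genes). The part of list length in these correlations was not tested, so they cannot show whether the numbers denote pairs. No 2 lists shared more than 5 identical peaks. The software was scipy 1.17.1, numpy 2.4.6 and pandas 2.3.3 under Python 3.11.15, with plots by matplotlib 3.10.9.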

Additional observations from a re-analysis of the deposited data

Results flagged for a closer look

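At 6 of the 7 genes the direction of the difference was opposite in the 2 libraries with many Y chromosome peaks (replicate 1 of each genotype) and in the other 4. The difference itself was not tested. HOM minus WT covered length in the pair with Y peaks was 6624 bp at Fbxo32, 720 bp at Trim63, 1373 bp at Trim54, 1390 bp at Trim55, 406 bp at Foxo1 and 7518 bp at Foxo3. Among the other 4 libraries it was -24111 bp at Fbxo32, -4219 bp at Trim63, -3363 bp at Trim54, -6674.5 bp at Trim55, -4164 bp at Foxo1 and -29847 bp at Foxo3, and each HOM value was below each WT value. The same pattern was met by 35.7% of all coding genes, and by 57.5% of the 13591 coding genes with a peak in any library. The HOM list of the pair covered 17.2 Mb and its WT list 6.69 Mb, and the part of list length in the pattern was not tested.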

How the results depend on the processing

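Of 126 alternative values of covered length at the 7 genes, 118 kept the direction of the difference. The 118 include the replicate block values, which equal the main ones by construction. They also include values requiring more of each peak inside the window, which were identical to the main ones at every gene. The design cannot reach 0.05, whatever the direction. The sign turned in the pair of libraries with Y peaks, to 6624 bp at Fbxo32, 720 bp at Trim63, 1373 bp at Trim54, 1390 bp at Trim55, 406 bp at Foxo1 and 7518 bp at Foxo3. At Trim54 it also turned to 34 bp at equal list length and to 32.76 bp per Mb on the relative scale. The turn to 34 bp rests on the order of tied peaks at the cut, which dropped the 1983 bp peak of WT replicate 2. The mean number of genes with a peak, HOM minus WT, turned from -2.667 to 0.5 at equal list length in 5 libraries. That value was taken with the same order of tied peaks. With 1 library left out, the mean number ranged from -4.167 to -0.6667. Leaving out 1 library each, the difference ranged from -19970 to -8894 bp at Fbxo32, -3915 to -1236 bp at Trim63, -3050 to -558.5 bp at Trim54, -5865 to -2195 bp at Trim55, -3879 to -1062 bp at Foxo1, -26500 to -5624 bp at Foxo3 and -370.2 to -149.7 bp at Foxo4. The number of coding genes lower in every HOM library was 764, and 293 with a -log10 q of at least 5. Leaving out 1 library each it ranged from 764 to 9877. The reverse number was 0, 87 at equal list length, and 0 to 1 with 1 library left out. The mean percentile of the strongest peak moved with the stricter q to 54.49 at Trim54 (from 87.47), 38.89 at Foxo1 (from 72.08) and 64.65 at Foxo3 (from 84.64), where fewer and stronger peaks enter the ranking. With the replicate number as a block the difference stays the same by construction, -13870 bp at Fbxo32, and the smallest sign-flip p is 0.25. Whether the numbers pair these samples is not known. Apart from the ranking and the tied peaks at Trim54, the cause of these changes was not tested.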
